A study of Homo sapiens with 38 samples.

Results

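The CDK inhibitors of the CDKN1 and CDKN2 families are 7 genes, CDKN1A, CDKN1B, CDKN1C, CDKN2A, CDKN2B, CDKN2C and CDKN2D, taken by symbol from the 2 tables of the series. All 7 were among the 15378 genes of the knockout and inhibitor experiment, and 6 were among the 14820 genes of the heterozygote experiment, where CDKN2B was not listed. Polyadenylated RNA was sequenced from SH-SY5Y, a human neuroblastoma cell line that puts out neurites in retinoic acid. Cells were either undifferentiated, in serum, or neural, after 10 days in neuronal medium with 10 µM retinoic acid. The first experiment had 3 libraries in each of 10 groups: p53_USP7_DKO and p53_BCOR_DKO (double knockouts of p53 with USP7 or BCOR), p53-KO and wild type (WT), each neural and undifferentiated, and WT neural cells given FT671 or its vehicle DMSO. The second had 2 libraries in each of 4 groups: USP7_heterozygous and WT cells, neural and undifferentiated. USP7 is a deubiquitinase that acts on MDM2 and p53 and on a noncanonical Polycomb complex, BCOR is a subunit of that complex, and FT671 is a USP7 inhibitor. Whether a genotype is 1 clone or several, and the dose and duration of FT671, are not given in the sources used here.

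CDK inhibitors hold back the cyclin-dependent kinases that drive entry into the cell cycle. The CIP/KIP proteins p21 (CDKN1A), p27 (CDKN1B) and p57 (CDKN1C) bind cyclin-kinase complexes broadly, while the INK4 proteins p16 (CDKN2A), p15 (CDKN2B), p18 (CDKN2C) and p19 (CDKN2D) bind CDK4 and CDK6 and keep cyclin D from activating them, which leaves RB able to hold E2F factors. CDKN1A is the best known transcriptional target of p53, the INK4 genes at 9p21 are a textbook target of Polycomb repression, and CDKN2A also encodes p14ARF, an inhibitor of MDM2, from another first exon. In neural tissue these genes are known for cell cycle exit of progenitors and neurons.

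Each library held between 16149022 and 17946790 reads in genes. RNA of USP7 and of BCOR was lower and not absent where the gene was targeted. USP7 had 379 to 709.8 normalized counts in the p53_USP7_DKO libraries, against 2305 to 3158 in the others, and BCOR had 702 to 1054 in the p53_BCOR_DKO libraries, against 1848 to 4361 in the others. BCOR was also lower in p53_USP7_DKO than in p53-KO cells, at 2318 to 2544 against 4070 to 4361 when neural. Undifferentiated, it had 1848 to 2716 against 3244 to 3855. USP7 had 2305 to 2509 in undifferentiated p53_BCOR_DKO cells, against 2975 to 3069 in undifferentiated p53-KO cells. In neural cells it had 2647 to 2831 against 2849 to 3016. In the second experiment USP7 had 1833 to 1878 in heterozygous cells, against 2917 to 3188 in WT cells. Of 9 markers of noradrenergic neuroblastoma all were listed in the first experiment and 8 in the second; TH was at 0 in 13 libraries of the first and was not listed in the second, and the summed level ran from 21755 to 97116 normalized counts in the first experiment. The third p53-KO undifferentiated library held 23247 normalized counts of muscle markers (12 of 13 listed), against 572 to 1362 in the other 29. It and the third p53_USP7_DKO undifferentiated library correlated less with their own groups than any other libraries did (Pearson's r of log2 values 0.974 to 0.979), and the report also gives values without both.

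Values below are normalized counts of each library in the order of its replicate number, or group means ± SD (n = 3 in the first experiment, n = 2 in the second). A normalized count is the read count divided by the size factor of the library. Differences are log2 differences ± SE from limma on log2(normalized count + 1), which pulls genes with few reads towards 0, and a gene was called where its p, adjusted over all genes of the experiment, was below 0.05. Nothing says that the libraries of a group came from separate cultures, so the p-values measure the spread between these libraries. In bulk RNA, fewer cells with a transcript and less of it per cell cannot be told apart.

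Per kilobase of exon, CDKN1B and CDKN2C led the family in undifferentiated WT cells, at 849 ± 13.2 and 870.1 ± 8.86 normalized counts per kilobase. CDKN1A followed at 242 ± 10.9, then CDKN1C at 111 ± 8.99, CDKN2D at 94.1 ± 12.0 and CDKN2A at 26.0 ± 2.62 normalized counts per kilobase. CDKN2B was lowest, with 7 reads in the 3 libraries together. The levels of a gene spanned very different ranges over the 10 groups. The highest group mean was 131 times the lowest for CDKN2B, 59.6 times for CDKN1A and 9.97 times for CDKN2A, but only 5.88 times for CDKN1C, 3.96 times for CDKN2C, 3.23 times for CDKN2D and 2.57 times for CDKN1B. When the 10 groups were ordered by mean, 8 of 9 neighbouring pairs were apart for CDKN1A, with no library of one group inside the range of the next. For CDKN1B and CDKN2C 6 of 9 pairs were apart, for CDKN1C, CDKN2A and CDKN2B 3 of 9, and for CDKN2D 2 of 9, so that most steps in the order of the last 4 genes lay within the spread of the libraries.

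**Figure D1:**
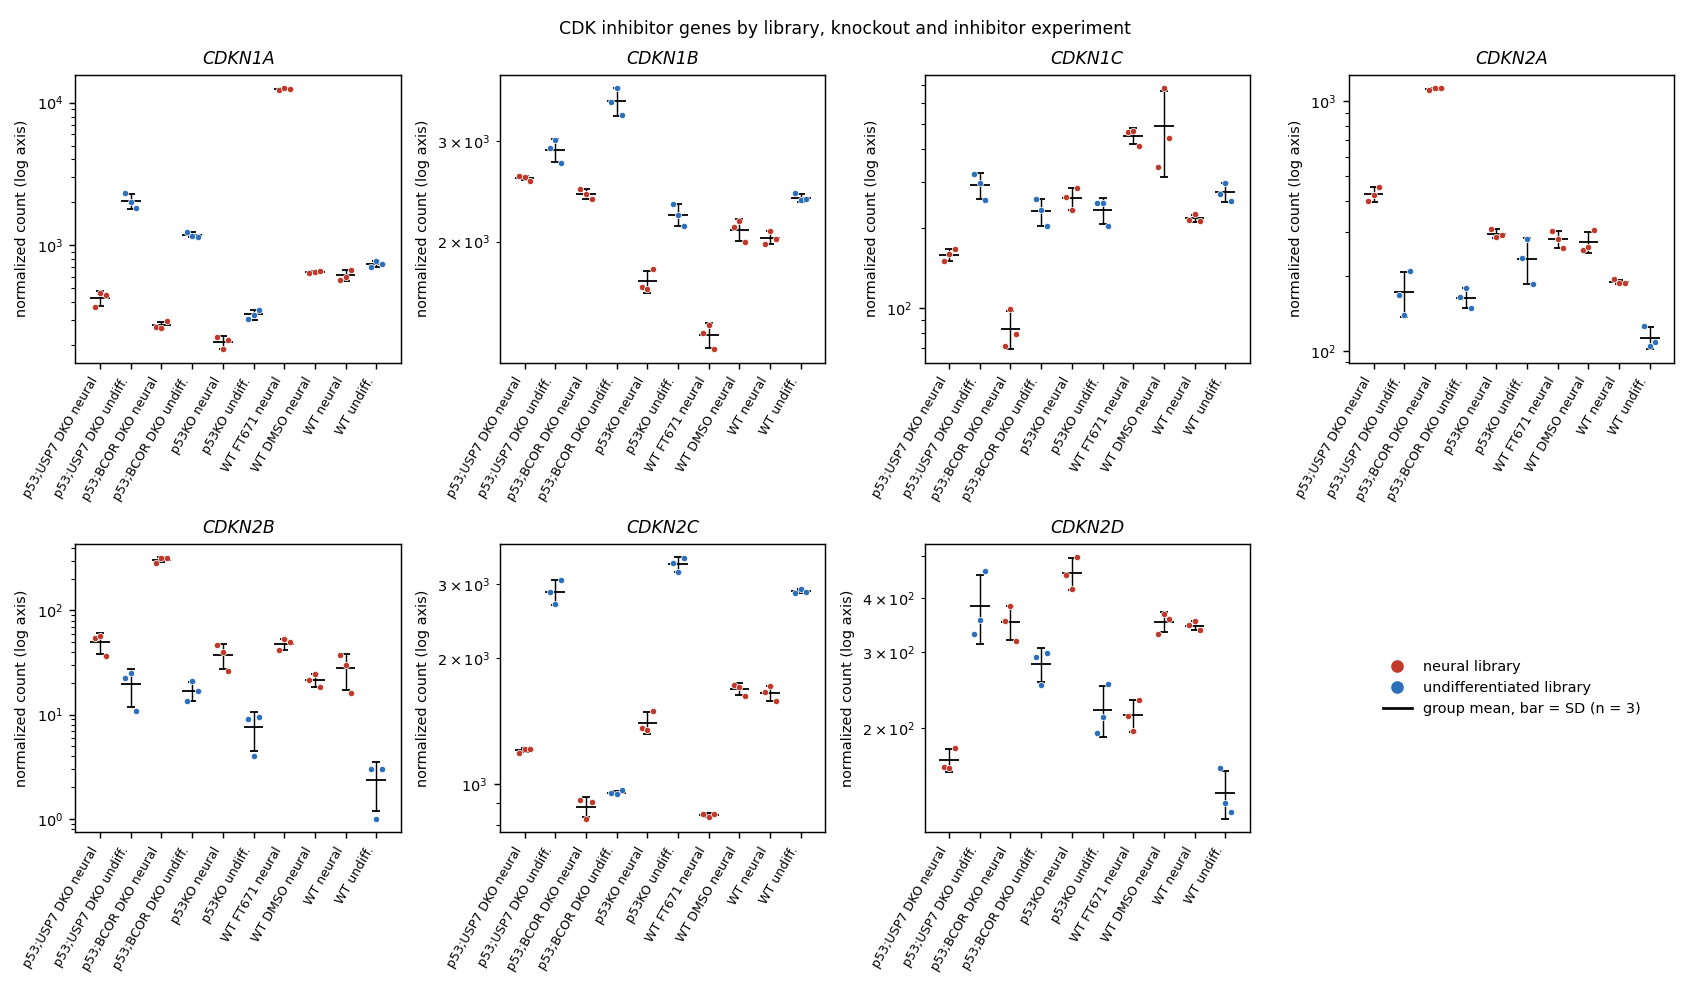
Normalized counts (y, log axis) of the 7 CDK inhibitor genes in the 30 libraries of the knockout and inhibitor experiment (points), by group (x), with the group mean (line) and SD (bar, n = 3). CDKN1A stands at 12319.7 to 12754 with FT671, CDKN2A and CDKN2B are highest in neural p53_BCOR_DKO cells, and CDKN2C is at 827 to 966 in all p53_BCOR_DKO libraries.

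Gene loss and the inhibitor moved most of the 7 genes. Most of all genes moved too with USP7 loss, BCOR loss and FT671, but not with p53 loss. USP7 loss on p53-KO called 6 of 7 genes in neural cells, where 63.7% of all genes were called (3 higher against 30.7% of all genes and 3 lower against 33%). In undifferentiated cells it called 6 of 7, against 57.3% (4 higher against 28.9% of all genes and 2 lower against 28.4%). BCOR loss on p53-KO called 7 of 7 in neural cells, against 62.3% (4 higher against 29.4% of all genes and 3 lower against 32.9%), and 6 of 7 in undifferentiated cells, against 69.4% (4 higher against 35.6% of all genes and 2 lower against 33.7%). Loss of p53 called 5 of 7 in neural cells, against 29.8% (2 higher against 17.8% of all genes and 3 lower against 12%), and 5 of 7 in undifferentiated cells, against 22.2% (4 higher against 12.2% of all genes and 1 lower against 10.1%). FT671 called 5 of 7 against DMSO, where 65.1% of all genes were called (2 higher against 33% of all genes and 3 lower against 32.1%). DMSO itself called 2 of 7 against untreated neural WT cells, both higher, where 8.7% of all genes were called (4.33% higher and 4.38% lower). The share of members called was above that of all genes in each of these comparisons, by least with FT671, and the list as such was not tested. The median log2 difference over the 7 was 0.40 and 0.38 for USP7 loss in neural and undifferentiated cells, 0.39 and 0.35 for BCOR loss, and -0.07 for FT671, while the median over all genes lay between -0.01 and 0.02. Markers of other cell types moved in the same comparisons: summed fibroblast and endothelium markers (8 of 10 listed, PECAM1 and CDH5 not) ran from 59146 to 61214 normalized counts with FT671, against 31272 to 34312 with DMSO, and from 25499.6 to 27060.4 in neural p53_USP7_DKO cells, against 9781 to 10169 in neural p53-KO cells. COL1A2 of this list was at 0 in every FT671 and DMSO library and in the first and second neural p53-KO libraries. Summed neuronal markers (7 of 8 listed) ran from 15056 to 15465 with FT671, against 32057 to 33485 with DMSO. In neural p53_USP7_DKO cells they ran from 6446 to 6587, against 34894 to 35179 in neural p53-KO cells. Summed noradrenergic markers (9 of 9 listed) ran from 34377 to 37180 with FT671, against 70837 to 73148 with DMSO. In neural p53_USP7_DKO cells these ran from 21755 to 24511, against 88786 to 97116 in neural p53-KO cells. The part of these markers in the results was not tested.

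**Figure D2:**
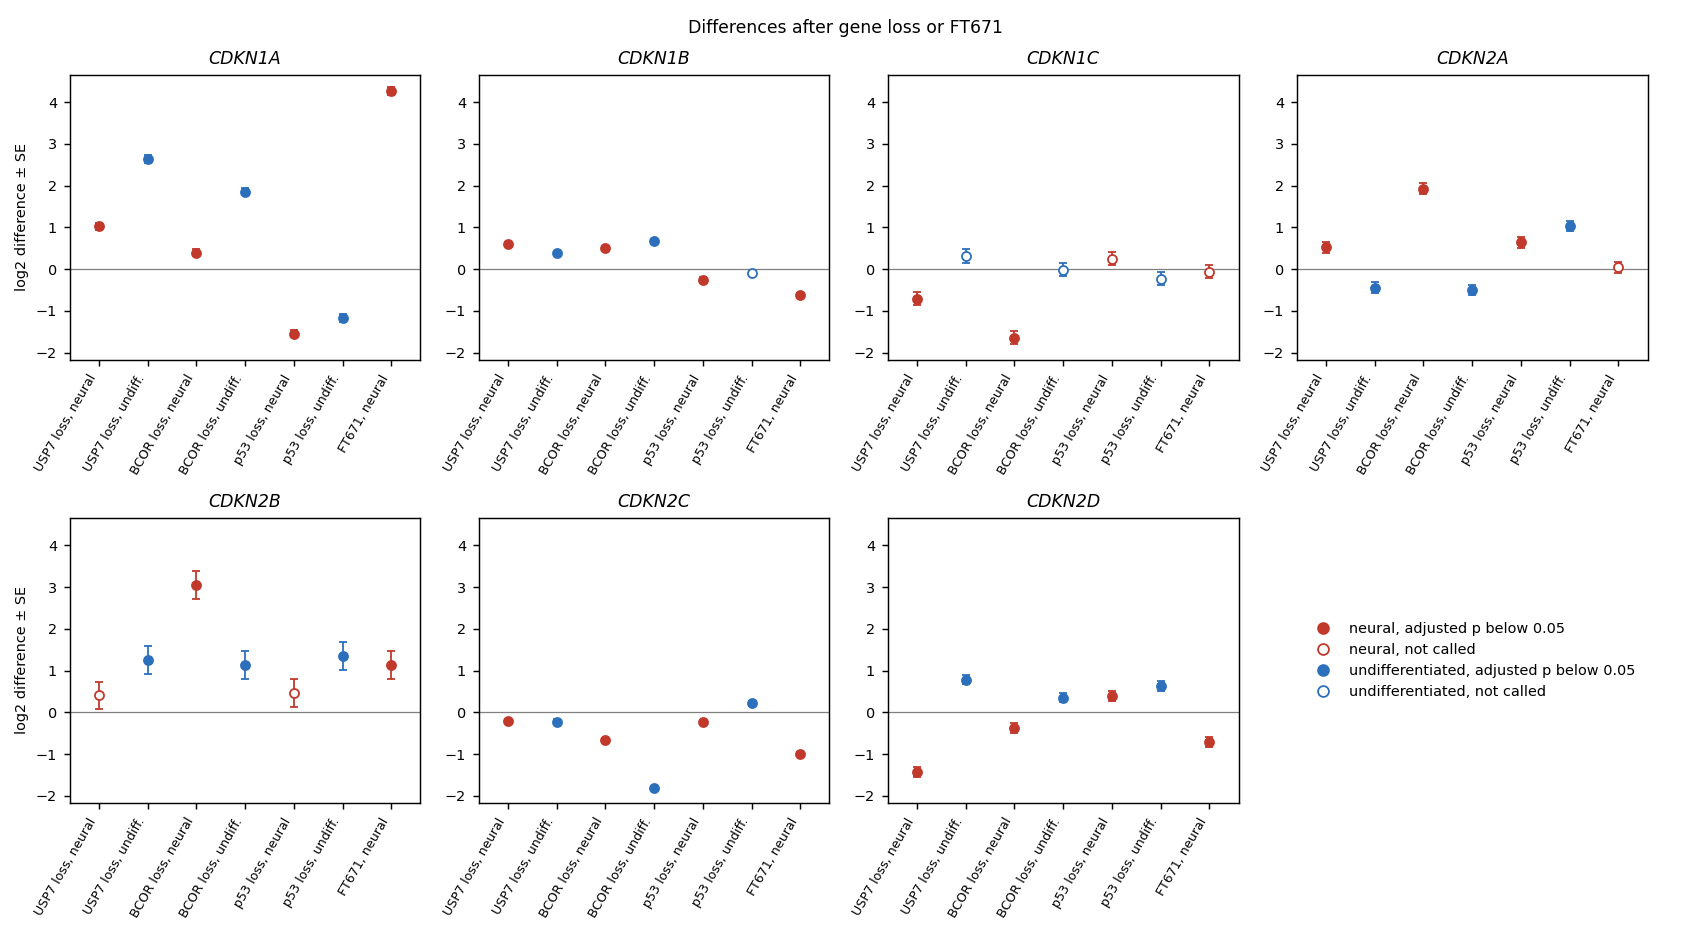
Log2 difference ± SE (y, limma) of each CDK inhibitor gene after USP7 loss or BCOR loss (against p53-KO), p53 loss (against WT) and FT671 (against DMSO), in neural (red) and undifferentiated cells (blue); filled points were called. CDKN1A is above 0 after USP7 loss, BCOR loss and FT671 and below 0 after p53 loss. CDKN2A and CDKN2D were called in opposite directions in neural and undifferentiated cells, both after USP7 loss and after BCOR loss.

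CDKN1A, which encodes p21, showed the widest response to the inhibitor. With FT671, neural WT cells had 12319.7, 12754 and 12384 normalized counts, against 642, 651 and 661 with DMSO. Every FT671 library was above every other library of the experiment. The ratio of the means was 19.1 and the log2 difference 4.26 ± 0.09 (adjusted p = 3.3e-24). DMSO alone gave no detectable change, since untreated neural WT cells had 568, 602 and 675 (log2 difference 0.09 ± 0.09, adjusted p = 0.65). Of 24 other p53 pathway genes 22 rose and 1 fell with FT671, against 33% and 32.1% of all genes. The list median was 1.35 on the log2 scale, against -0.01 for all genes. BTG2, an antiproliferative p53 target, rose by 4.28 ± 0.09 (adjusted p = 1.2e-23), and MDM4, which restrains p53, fell (-0.34 ± 0.07, adjusted p = 5.9e-05).

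Without p53, CDKN1A was lower in both states. Neural p53-KO cells had 226, 186 and 217 normalized counts, against 568, 602 and 675 in neural WT cells, a log2 difference of -1.55 ± 0.09 (adjusted p = 1.6e-13). Undifferentiated p53-KO cells had 302, 326 and 354, against 708, 774 and 737 in undifferentiated WT cells, a log2 difference of -1.18 ± 0.09 (adjusted p = 3.8e-11). The groups did not overlap in either state. Summed fibroblast and endothelium markers (8 of 10 listed) ran from 9781 to 10169 normalized counts in neural p53-KO cells, against 24873 to 32842 in neural WT cells, and from 8715 to 8753 in undifferentiated p53-KO cells, against 20434 to 21163 in undifferentiated WT cells. COL1A2 of this list was at 0 in the first and second neural libraries of both p53-KO and WT cells. Summed neuronal markers (7 of 8 listed) ran from 34894 to 35179 in neural p53-KO cells, against 32956 to 34161 in neural WT cells, and from 19329 to 19594 in undifferentiated p53-KO cells, against 12055 to 12580.1 in undifferentiated WT cells. The part of either marker set in the result was not tested. The effect in neural cells minus that in undifferentiated cells was -0.37 ± 0.13 on the log2 scale (adjusted p = 0.039), a difference that lost its call when any of 7 single libraries was left out, among them the third p53-KO undifferentiated library (-0.32, adjusted p = 0.11). Of the 24 p53 pathway genes 1 rose and 9 fell with p53 loss in neural cells, against 17.8% and 12% of all genes, and 1 rose and 11 fell in undifferentiated cells, against 12.2% and 10.1%. The list medians were -0.14 and -0.20 on the log2 scale, against 0.01 and -0.00 for all genes.

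On this p53-KO background, loss of USP7 or of BCOR raised CDKN1A, and more in undifferentiated cells. Undifferentiated p53_USP7_DKO cells had 2307, 1997 and 1822 normalized counts, against 302, 326 and 354 in undifferentiated p53-KO cells, a ratio of 6.21 (log2 difference 2.63 ± 0.09, adjusted p = 2.2e-19). In neural cells p53_USP7_DKO had 369.7, 463 and 449.6, against 226, 186 and 217 in p53-KO, a ratio of 2.03 (log2 difference 1.02 ± 0.09, adjusted p = 6.4e-11). The neural effect of USP7 loss minus the undifferentiated one was -1.61 ± 0.13 on the log2 scale (adjusted p = 3.2e-11).

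Loss of BCOR gave 1238, 1162 and 1148 normalized counts of CDKN1A in undifferentiated p53_BCOR_DKO cells, against the same p53-KO libraries, a log2 difference of 1.85 ± 0.09 (adjusted p = 1.6e-16). In neural cells p53_BCOR_DKO had 267, 264 and 293, against 226, 186 and 217 in p53-KO, a log2 difference of 0.39 ± 0.09 (adjusted p = 3.9e-04). The neural effect of BCOR loss minus the undifferentiated one was -1.46 ± 0.13 (adjusted p = 9.1e-11). The 2 double knockouts share the p53-KO control, so both were also set against each other. CDKN1A was higher in p53_USP7_DKO than in p53_BCOR_DKO cells by 0.63 ± 0.09 in neural cells (adjusted p = 6.6e-07) and by 0.78 ± 0.09 in undifferentiated cells (adjusted p = 1.9e-08). All undifferentiated double knockout libraries lay above the 708, 774 and 737 of undifferentiated WT cells. All neural double knockout libraries lay below the 568, 602 and 675 of neural WT cells, and these comparisons with WT were not tested. Without the 2 libraries that stand apart, the undifferentiated differences were 2.77 for USP7 loss and 1.91 for BCOR loss, both still called.

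In the double knockouts the p53 list had members called in both directions. With USP7 loss 14 of 24 genes rose and 5 fell in neural cells, against 30.7% and 33% of all genes (median log2 difference 0.35). In undifferentiated cells 13 rose and 3 fell, against 28.9% and 28.4% of all genes (median 0.32). With BCOR loss 12 rose and 7 fell in neural cells, against 29.4% and 32.9% of all genes (median 0.25). In undifferentiated cells 14 rose and 4 fell, against 35.6% and 33.7% of all genes (median 0.42). The list as such was not tested. GADD45A, a stress gene that p53 and other factors induce, rose by 1.93 ± 0.06 in neural and 1.98 ± 0.06 in undifferentiated cells with BCOR loss, and by 1.51 ± 0.06 in undifferentiated cells with USP7 loss. In neural cells the FT671 effect on CDKN1A exceeded the effect of USP7 loss on the p53-KO background by 3.24 ± 0.13 on the log2 scale (adjusted p = 1.9e-17); the 2 effects differ in p53 status as well as in agent, which cannot be told apart here.

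CDKN1B, which encodes p27, had the narrowest range of the 7 genes. With FT671 it fell to 1383, 1429 and 1294 normalized counts, against 2125, 2174 and 1994 with DMSO, a log2 difference of -0.62 ± 0.05 (adjusted p = 6.0e-11), and FT671 libraries had the lowest values of the experiment. USP7 loss on p53-KO went the other way. Neural p53_USP7_DKO cells had 2605, 2594 and 2556, against 1663, 1653 and 1791 in neural p53-KO cells (0.60 ± 0.05, adjusted p = 8.1e-11). Undifferentiated p53_USP7_DKO cells had 2922, 3014 and 2748, against 2324, 2229 and 2129 in p53-KO (0.38 ± 0.05, adjusted p = 8.5e-07). The difference between the FT671 effect and the USP7 loss effect was -1.22 ± 0.08 (adjusted p = 2.5e-13). These effects differ in p53 status as well as in agent, which cannot be told apart here. BCOR loss raised CDKN1B as well, by 0.51 ± 0.05 in neural cells (adjusted p = 2.5e-09) and by 0.66 ± 0.05 in undifferentiated cells (adjusted p = 1.3e-11), where the p53_BCOR_DKO libraries held the highest values of the experiment, 3507, 3724 and 3332. Between p53_USP7_DKO and p53_BCOR_DKO the neural difference of 0.09 ± 0.05 did not pass the test (adjusted p = 0.13) and turned to -0.01 when libraries were rescaled by TMM. Loss of p53 lowered CDKN1B in neural cells (-0.25 ± 0.05, adjusted p = 5.0e-04), and its undifferentiated value was -0.10 ± 0.05 (adjusted p = 0.19).

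The abundance of p27 and p21 protein is also set by ubiquitin ligases, whose genes are listed here as ligase genes of the CIP/KIP proteins. Of 12 such genes 3 rose and 8 fell with FT671, against 33% and 32.1% of all genes (list median -0.42 on the log2 scale). DTL, the substrate adaptor that brings p21 to its CUL4 ligase in S phase, fell by 1.97 ± 0.06 (adjusted p = 1.9e-21), and CUL4B rose by 0.25 ± 0.06. In neural cells 2 rose and 5 fell with USP7 loss, against 30.7% and 33% of all genes (median -0.14). With BCOR loss 5 rose and 1 fell in neural cells, against 29.4% and 32.9% of all genes (median 0.18), and SKP2, which recruits p27 for degradation, rose by 0.90 ± 0.05 (adjusted p = 5.4e-15). In undifferentiated cells 1 rose and 4 fell with USP7 loss, against 28.9% and 28.4% of all genes (median -0.09), and 2 rose and 8 fell with BCOR loss, against 35.6% and 33.7% of all genes (median -0.22). Medians over all genes lay between -0.01 and 0.02 in these comparisons, and the list as such was not tested. Protein was not measured.

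CDKN1C, which encodes p57 and is an imprinted gene, was lowest in neural p53_BCOR_DKO cells. Those cells had 71.8, 98.7 and 79.5 normalized counts, against 263, 235 and 285 in neural p53-KO cells, a log2 difference of -1.64 ± 0.16 (adjusted p = 5.5e-10). Neural p53_USP7_DKO cells had 151, 160.0 and 166, a difference of -0.71 ± 0.16 from the same p53-KO libraries (adjusted p = 3.3e-04). In undifferentiated cells neither loss passed the test: p53_USP7_DKO cells had 321, 298 and 256 and p53_BCOR_DKO cells 258, 234 and 204, against 250.1, 249 and 204 in p53-KO cells (0.31 ± 0.16 and -0.01 ± 0.16, adjusted p = 0.094 and 0.94). The neural effect minus the undifferentiated one was -1.02 ± 0.23 for USP7 (adjusted p = 5.6e-04) and -1.63 ± 0.23 for BCOR (adjusted p = 4.8e-07). Loss of p53 did not pass the test in neural cells (0.25 ± 0.16, adjusted p = 0.26) or undifferentiated cells (-0.23 ± 0.16, adjusted p = 0.33).

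CDKN1C was called against untreated cells with the vehicle, and not with FT671 against the vehicle. Neural WT cells with DMSO had 343, 686 and 442 normalized counts, against 215, 226 and 213 in untreated neural WT cells, a log2 difference of 1.10 ± 0.16 (adjusted p = 2.6e-05). The 3 DMSO libraries lay far apart, and the call was lost when the 2 groups were fitted alone (1.10, adjusted p = 0.059). FT671 libraries had 466, 469.7 and 412, within the range of the DMSO libraries (-0.07 ± 0.16, adjusted p = 0.73); without the second DMSO library the difference was 0.21 and also did not pass (adjusted p = 0.2).

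CDKN2A and CDKN2B lie next to each other on chromosome 9, both on the minus strand, and rose most of the 7 genes with BCOR loss in neural cells. BCOR belongs to a complex known to bind unmethylated CpG-rich promoters through KDM2B. The windows around the starts of both genes are shown with each CG dinucleotide in capitals. They are RefSeq windows on GRCh38.p14, minus strand, 250 bases before to 50 after the annotated start: chr9:22009256-22009555 for CDKN2B, chr9:21995275-21995574 for the upstream start of CDKN2A (the p14ARF first exon) and chr9:21974808-21975107 for its downstream start (the p16 first exon).
CDKN2B: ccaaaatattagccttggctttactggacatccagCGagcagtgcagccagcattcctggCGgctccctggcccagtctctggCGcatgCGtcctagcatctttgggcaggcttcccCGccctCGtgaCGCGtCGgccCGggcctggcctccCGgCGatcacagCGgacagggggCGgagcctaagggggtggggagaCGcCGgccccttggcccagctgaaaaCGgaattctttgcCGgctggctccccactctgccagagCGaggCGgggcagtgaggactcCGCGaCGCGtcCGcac
CDKN2A, upstream start: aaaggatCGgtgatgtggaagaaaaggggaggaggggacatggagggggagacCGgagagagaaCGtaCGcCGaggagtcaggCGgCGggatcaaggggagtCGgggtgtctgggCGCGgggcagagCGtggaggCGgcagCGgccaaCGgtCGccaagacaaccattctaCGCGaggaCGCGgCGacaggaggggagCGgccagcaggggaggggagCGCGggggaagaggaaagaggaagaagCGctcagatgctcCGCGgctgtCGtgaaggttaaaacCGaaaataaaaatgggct
CDKN2A, downstream start: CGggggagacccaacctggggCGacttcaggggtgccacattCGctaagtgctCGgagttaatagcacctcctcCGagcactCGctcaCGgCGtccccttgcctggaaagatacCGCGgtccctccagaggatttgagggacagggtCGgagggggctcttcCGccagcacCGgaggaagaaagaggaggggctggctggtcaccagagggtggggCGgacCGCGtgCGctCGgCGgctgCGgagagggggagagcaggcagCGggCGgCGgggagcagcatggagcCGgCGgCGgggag
The windows hold 25, 28 and 26 CG dinucleotides, against a median of 14 over 35116 promoter windows, and 32.0%, 26.2% and 30.1% of all windows hold at least as many. The windows of CDKN1A, CDKN1B and CDKN2D hold more, with 29, 29 and 36, and those at the 3 starts of CDKN2C, which fell with BCOR loss, hold 8, 37 and 11. The GC box GGGCGG, searched on both strands, is in the CDKN2B window and in the downstream CDKN2A window, as in 45.0% of all windows, and not in the upstream one. The E2F letters, searched on both strands as TTTCCCGC, TTTCGCGC, TTTGCCGC and TTTGGCGC, are in none of these windows and in 3.31% of all windows. Binding and DNA methylation were not measured.

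Loss of BCOR raised both genes in neural cells. Neural p53_BCOR_DKO cells had 1109, 1129 and 1131 normalized counts of CDKN2A, against 309, 285 and 292 in neural p53-KO cells, a ratio of 3.80 (log2 difference 1.92 ± 0.13, adjusted p = 1.2e-13). For CDKN2B they had 286, 319.7 and 318, against 46.2, 39.9 and 26.3, a ratio of 8.22 (log2 difference 3.04 ± 0.33, adjusted p = 6.4e-09). No other group reached these levels: the next highest group mean was 424 ± 27.7 for CDKN2A and 49.5 ± 11.0 for CDKN2B, both in neural p53_USP7_DKO cells. The log2 difference of neural p53_USP7_DKO from neural p53_BCOR_DKO cells was -1.41 ± 0.13 for CDKN2A (adjusted p = 1.3e-10) and -2.64 ± 0.33 for CDKN2B (adjusted p = 9.8e-08).

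In undifferentiated cells CDKN2A fell and CDKN2B rose. Undifferentiated p53_BCOR_DKO cells had 164, 178 and 148 normalized counts of CDKN2A, against 236, 281 and 185 in undifferentiated p53-KO cells, a log2 difference of -0.50 ± 0.13 (adjusted p = 0.001). CDKN2B had 13.6, 20.8 and 16.7, against 9.11, 4.03 and 9.56, a rise of 1.13 ± 0.33 (adjusted p = 0.004) from a level of 22 reads in 3 libraries. The BCOR effect in neural cells exceeded that in undifferentiated cells by 2.42 ± 0.18 for CDKN2A (adjusted p = 3.3e-12) and by 1.91 ± 0.47 for CDKN2B (adjusted p = 9.6e-04). Without the 2 libraries that stand apart the undifferentiated differences were -0.66 and 1.32, both still called.

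Of the listed neighbours, MTAP moved in the same directions as CDKN2A by smaller amounts and ELAVL2 fell. MTAP, an enzyme of methionine salvage and the nearest listed gene beyond CDKN2A, had 913, 919.5 and 892 normalized counts in neural p53_BCOR_DKO cells, against 542, 524 and 509 in neural p53-KO cells (0.79 ± 0.06, adjusted p = 2.6e-12), and fell in undifferentiated cells (-0.19 ± 0.06, adjusted p = 0.0061). ELAVL2, a neuronal RNA-binding protein and the nearest listed gene beyond CDKN2B, fell with BCOR loss in neural cells, to 243, 249 and 243 in p53_BCOR_DKO cells, against 625, 616 and 643 in p53-KO cells (-1.36 ± 0.11, adjusted p = 8.5e-12). Other markers moved in the same libraries. Summed fibroblast and endothelium markers (8 of 10 listed) ran from 131192 to 135114 normalized counts in neural p53_BCOR_DKO cells, against 9781 to 10169 in neural p53-KO cells, with PECAM1 and CDH5 not listed. Summed neuronal markers (7 of 8 listed) ran from 9747 to 10054, against 34894 to 35179. In undifferentiated cells the fibroblast and endothelium sum ran from 61262 to 65298 in p53_BCOR_DKO cells, against 8715 to 8753 in p53-KO cells. The part of either marker set in the result was not tested. Counts per gene do not separate p16 from p14ARF transcripts, and the second exons of CDKN2A and CDKN2B are similar in sequence. The antisense genes CDKN2B-AS1 and CDKN2A-AS1 were not listed under these symbols, and antisense transcripts of the locus were not analysed here. Whether counting used strand is not given in the sources used here.

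**Figure D3:**
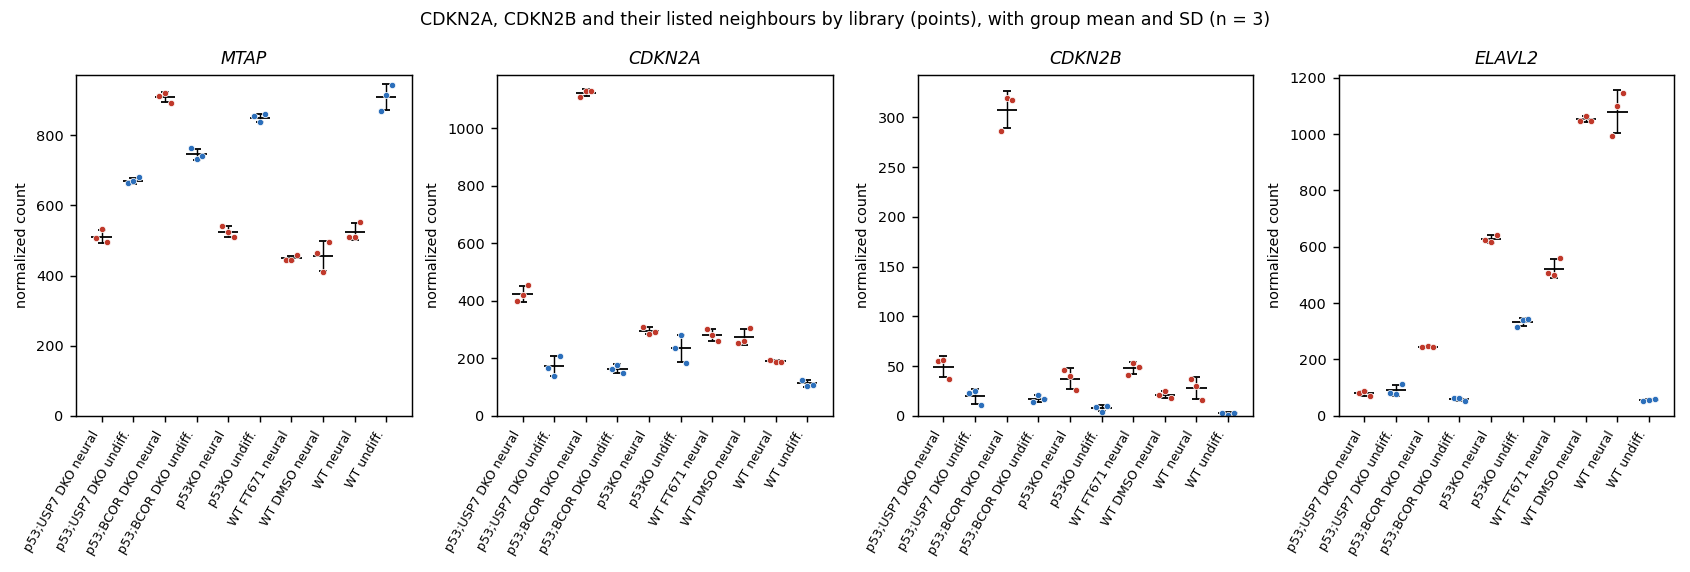
Normalized counts (y, linear from 0) of MTAP, CDKN2A, CDKN2B and ELAVL2 in the libraries of the knockout and inhibitor experiment (points, neural red, undifferentiated blue), with group mean and SD (n = 3). CDKN2A at 1109 to 1131 and CDKN2B at 286 to 319.7 stand apart in neural p53_BCOR_DKO cells, while ELAVL2 is at 243 to 249 there.

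USP7 loss moved CDKN2A in opposite directions in the 2 states. In neural cells p53_USP7_DKO had 399, 419.6 and 454 normalized counts, against 309, 285 and 292 in p53-KO, a rise of 0.52 ± 0.13 (adjusted p = 7.0e-04). In undifferentiated cells p53_USP7_DKO had 167, 139.5 and 208, against 236, 281 and 185 in p53-KO, a log2 difference of -0.44 ± 0.13 (adjusted p = 0.0038) with overlapping libraries. The difference was -0.75 without the 2 libraries that stand apart and lost its call without the second p53-KO undifferentiated library (-0.30, adjusted p = 0.054). Fitted on these 2 groups alone, the undifferentiated USP7 loss differences of CDKN2A, CDKN2B and CDKN2C were not called (adjusted p = 0.15, 0.062 and 0.13). The effects differed by 0.96 ± 0.18 (adjusted p = 7.0e-05). CDKN2B rose with USP7 loss in undifferentiated cells, to 22.7, 25.4 and 10.8 in p53_USP7_DKO cells, against 9.11, 4.03 and 9.56 in p53-KO cells (1.26 ± 0.33, adjusted p = 0.0021; 1.81 without the 2 libraries that stand apart), while its neural value of 0.40 ± 0.33 did not pass (adjusted p = 0.3).

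Loss of p53 itself raised CDKN2A, to 309, 285 and 292 in neural p53-KO cells, against 193, 188 and 187 in neural WT cells (0.64 ± 0.13, adjusted p = 2.5e-04). In undifferentiated cells the rise was to 236, 281 and 185, against 126, 104 and 108 in WT (1.03 ± 0.13, adjusted p = 3.2e-07). CDKN2B rose with p53 loss in undifferentiated cells by 1.35 ± 0.33 (adjusted p = 0.0037), on 22 reads in p53-KO against 7 in WT, was 0.75 with 5 in place of 1 added before the logarithm, and was not called by edgeR on the recovered reads (1.63, adjusted p = 0.053). FT671 left CDKN2A within the range of DMSO: 301, 282 and 259 with FT671, against 253, 261 and 304 with DMSO (0.04 ± 0.13, adjusted p = 0.79; -0.03 under TMM rescaling). CDKN2B had 41.3, 52.7 and 49.3 with FT671, against 21.4, 24.5 and 18.3 with DMSO, a rise of 1.13 ± 0.33 (adjusted p = 0.0043). DMSO against untreated neural cells raised CDKN2A by 0.52 ± 0.13 (adjusted p = 0.0077), a call lost without the third DMSO library (0.44, adjusted p = 0.065).

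CDKN2C, which encodes p18, was lower with BCOR loss, USP7 loss and FT671. Undifferentiated p53_BCOR_DKO cells had 953, 947 and 966 normalized counts, against 3371, 3201 and 3472 in p53-KO, a ratio of 0.286 (log2 difference -1.81 ± 0.05, adjusted p = 4.0e-21). In neural cells p53_BCOR_DKO had 917, 827 and 906, against 1362, 1349 and 1496 (-0.67 ± 0.05, adjusted p = 1.6e-11), and the effects differed by 1.14 ± 0.08 (adjusted p = 5.6e-13). With FT671 neural WT cells had 849, 835 and 849.6, against 1726, 1710.3 and 1626 with DMSO (-0.997 ± 0.054, adjusted p = 2.8e-15), the lowest group mean of the experiment. USP7 loss on p53-KO lowered it too, with log2 differences of -0.22 ± 0.05 in neural cells (adjusted p = 9.5e-04) and -0.22 ± 0.05 in undifferentiated cells (adjusted p = 0.001), the second of which was not called on the 2 groups alone (adjusted p = 0.13), with no detectable difference between the states (0.00 ± 0.08, adjusted p = 0.97). In the direct comparison CDKN2C was higher in p53_USP7_DKO than in p53_BCOR_DKO cells by 0.45 ± 0.05 in neural cells (adjusted p = 4.5e-08) and 1.59 ± 0.05 in undifferentiated cells (adjusted p = 2.4e-19). Loss of p53 lowered it in neural cells (-0.23 ± 0.05, adjusted p = 0.0014) and raised it in undifferentiated cells (0.21 ± 0.05, adjusted p = 0.0048), a difference of -0.45 ± 0.08 (adjusted p = 9.7e-05).

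CDKN2D, which encodes p19, changed direction with USP7 loss between states. Neural p53_USP7_DKO cells had 163, 162 and 180.4 normalized counts, against 453, 419 and 498 in neural p53-KO cells, a ratio of 0.371 (log2 difference -1.43 ± 0.12, adjusted p = 1.3e-11). Undifferentiated p53_USP7_DKO cells had 331, 356 and 462, against 195, 213 and 254 in p53-KO, a rise of 0.79 ± 0.12 (adjusted p = 1.7e-06). In both undifferentiated groups the third library was the highest, and without them the rise was 0.75. The interaction was -2.22 ± 0.16 (adjusted p = 9.5e-12), against -0.73 ± 0.16 for BCOR loss (adjusted p = 3.7e-04), which lowered CDKN2D in neural cells (-0.38 ± 0.12, adjusted p = 0.0063) and raised it in undifferentiated cells (0.35 ± 0.12, adjusted p = 0.0087). The last of these, with overlapping libraries, was not called without the first p53-KO undifferentiated library (0.27, adjusted p = 0.064). FT671 lowered the gene to 213, 197 and 233, against 331, 367 and 359 with DMSO (-0.72 ± 0.12, adjusted p = 4.7e-06). The FT671 effect was above the neural USP7 loss effect by 0.72 ± 0.16 (adjusted p = 7.4e-04), where p53 status and agent cannot be told apart. Loss of p53 raised CDKN2D in neural cells (0.40 ± 0.12, adjusted p = 0.0097; not called without the third p53-KO neural library, 0.33, adjusted p = 0.061) and in undifferentiated cells (0.64 ± 0.12, adjusted p = 1.5e-04).

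Neural differentiation called members in both directions. In WT cells 6 of 7 genes were called, where 65.7% of all genes were (3 higher against 32.4% of all genes and 3 lower against 33.4%). In p53-KO cells 6 were called, against 69% (3 higher against 35.6% of all genes and 3 lower against 33.5%), in p53_USP7_DKO cells 7, against 65.5% (2 higher against 33.9% of all genes and 5 lower against 31.6%), and in p53_BCOR_DKO cells 6, against 57.1% (3 higher against 27% of all genes and 3 lower against 30.1%). Of all genes called in p53_BCOR_DKO differentiation 47.3% were higher, and 57.5% under TMM rescaling. CDKN1B fell in all 4 genotypes and CDKN2A and CDKN2B rose in all 4, and CDKN2D was called in both directions, depending on genotype. These comparisons each have their own control, the undifferentiated cells of that genotype. Summed neuronal markers (7 of 8 listed) were lower in neural than undifferentiated cells for p53_USP7_DKO (6446 to 6587 against 10927 to 15674 normalized counts). The same held for p53_BCOR_DKO (9747 to 10054 against 14961 to 15531). Those sums were higher in neural WT (32956 to 34161 against 12055 to 12580) and neural p53-KO cells (34894 to 35179 against 19329 to 19594). What part this had was not tested.

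In WT cells CDKN2B and CDKN2D had the largest log2 rises of the 7 genes. Neural WT cells had 346, 354 and 337 normalized counts of CDKN2D, against 162, 134 and 128 in undifferentiated WT cells (1.29 ± 0.12, adjusted p = 1.2e-10). The rise was 1.05 ± 0.12 in p53-KO cells (adjusted p = 6.5e-09) and 0.32 ± 0.12 in p53_BCOR_DKO cells (adjusted p = 0.019), and the last lost its call without the second p53_BCOR_DKO library of either state (0.26 and 0.25). In p53_USP7_DKO cells CDKN2D fell instead, to 163, 162 and 180.4 in neural against 331, 356 and 462 in undifferentiated cells (-1.17 ± 0.12, adjusted p = 1.2e-09; -1.02 without the 2 libraries that stand apart). CDKN2B had 37.5, 29.8 and 16.3 in neural WT cells, against 3.04, 1.00 and 3.01 in undifferentiated WT cells. The fitted difference of 3.10 ± 0.33 (adjusted p = 4.2e-09) rests on 87 against 7 reads, and was 2.12 with 5 in place of 1 added before the logarithm.

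CDKN2A rose with differentiation by 0.75 ± 0.13 in WT cells (adjusted p = 7.9e-06), 1.32 ± 0.13 in p53_USP7_DKO cells (adjusted p = 5.6e-10) and 2.78 ± 0.13 in p53_BCOR_DKO cells (adjusted p = 4.3e-17). In p53-KO cells it had 309, 285 and 292 normalized counts when neural, against 236, 281 and 185 undifferentiated (0.35 ± 0.13, adjusted p = 0.015). That call was lost without the third undifferentiated library (0.19, adjusted p = 0.17) and without the first neural one (0.32). CDKN2B rose by 2.21 ± 0.33 in p53-KO, 1.35 ± 0.33 in p53_USP7_DKO and 4.11 ± 0.33 in p53_BCOR_DKO cells, the last to 286, 319.7 and 318 in neural against 13.6, 20.8 and 16.7 in undifferentiated cells (adjusted p = 1.9e-11).

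CDKN1A fell with differentiation in every genotype of this experiment. The log2 difference was -0.27 ± 0.09 in WT cells (adjusted p = 0.01; not called without the first neural library, -0.21, adjusted p = 0.064) and -0.64 ± 0.09 in p53-KO cells (adjusted p = 4.0e-07). It was -2.25 ± 0.09 in p53_USP7_DKO cells (adjusted p = 3.4e-18) and -2.10 ± 0.09 in p53_BCOR_DKO cells (adjusted p = 1.0e-17). CDKN2C, with a log2 difference of -0.81 ± 0.05 in WT (adjusted p = 2.6e-13), -1.26 ± 0.05 in p53-KO (adjusted p = 1.8e-17) and -1.25 ± 0.05 in p53_USP7_DKO cells (adjusted p = 2.5e-17), fell in these 3 genotypes. In p53_BCOR_DKO cells, where CDKN2C was already at 953, 947 and 966 before differentiation, the neural libraries had 917, 827 and 906 and the difference did not pass (-0.11 ± 0.05, adjusted p = 0.075). CDKN1C fell in p53_USP7_DKO (-0.87 ± 0.16, adjusted p = 3.1e-05) and p53_BCOR_DKO cells (-1.47 ± 0.16, adjusted p = 6.0e-09), and its values of -0.33 ± 0.16 in WT and 0.15 ± 0.16 in p53-KO cells did not pass (adjusted p = 0.074 and 0.39). The log2 difference of CDKN1B was -0.16 in p53_USP7_DKO, -0.54 in p53_BCOR_DKO, -0.23 in WT and -0.39 in p53-KO cells; the p53_USP7_DKO value was not called without its second undifferentiated library (adjusted p = 0.052).

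**Figure D4:**
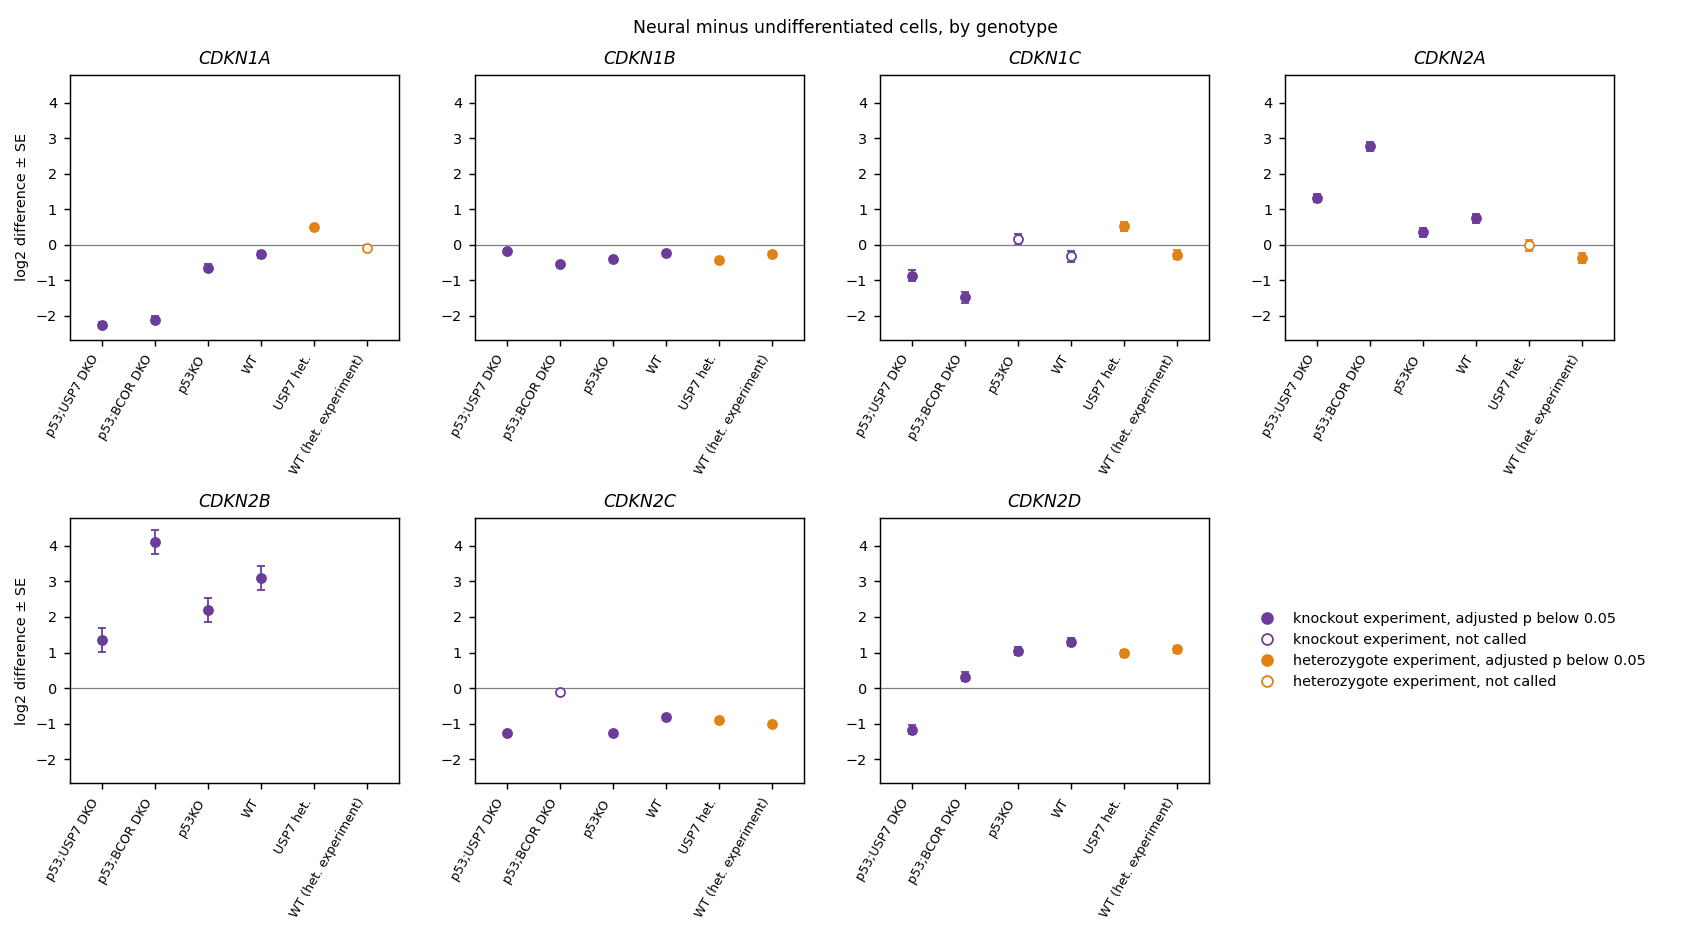
Log2 difference ± SE (y, limma) of neural minus undifferentiated cells for each CDK inhibitor gene, by genotype (x), in the knockout experiment (purple) and the heterozygote experiment (orange, fitted separately); filled points were called. CDKN2D lies at -1.17 in p53_USP7_DKO cells and above 0 in the other 5 genotypes, CDKN2C lies near 0 only in p53_BCOR_DKO cells, and CDKN2B has no point in the heterozygote experiment.

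The effect of USP7 loss differed between neural and undifferentiated cells for 5 of 7 genes, where it did for 42.1% of all genes (2 higher against 20.9% of all genes and 3 lower against 21.2%). The effect of BCOR loss differed for 6, against 63.8% (3 higher against 29.3% of all genes and 3 lower against 34.4%), and that of p53 loss for 2, both lower, against 18.1% (10.2% higher and 7.87% lower). The FT671 effect differed from the neural USP7 loss effect for 6 of 7, against 43.3% (3 higher against 23.7% of all genes and 3 lower against 19.6%), of which CDKN1C (0.64 ± 0.23) and CDKN2A (-0.48 ± 0.18) lost their calls when single libraries were left out, 4 in turn for CDKN1C and 5 for CDKN2A. FT671 was given to WT cells and USP7 loss was on p53-KO, so agent and p53 status cannot be told apart. In the direct comparison of p53_USP7_DKO with p53_BCOR_DKO cells 6 of 7 genes were called in neural cells, against 60.9% (3 higher against 32.3% of all genes and 3 lower against 28.6%), and 4 in undifferentiated cells, against 65.2% (3 higher against 32.2% of all genes and 1 lower against 33%). Without the 2 libraries that stand apart, p53 loss interactions were called for 4 of 7 genes, adding CDKN1B (-0.19) and CDKN2A (-0.55), and the USP7 interaction of CDKN2B was called at -1.40, against -0.86 ± 0.47 and no call with all libraries (adjusted p = 0.15). With p53 loss in undifferentiated cells the log2 differences without them were -1.23 for CDKN1A, 1.19 for CDKN2A, 1.16 for CDKN2B, 0.19 for CDKN2C and 0.53 for CDKN2D, all still called. With USP7 loss in undifferentiated cells they were 0.38 for CDKN1B and -0.24 for CDKN2C, and with BCOR loss 0.63 for CDKN1B, -1.78 for CDKN2C and 0.46 for CDKN2D, all still called. Between the undifferentiated double knockouts CDKN1C was called without them (0.42), against 0.33 ± 0.16 and no call with all libraries (adjusted p = 0.072).

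Lists of cell cycle genes moved in the same comparisons. The lists as such, and a link to the CDK inhibitor genes, were not tested. Of 11 G1 cyclin and kinase genes 10 fell with FT671 and 1 rose (median log2 difference -0.94), and of 13 pocket protein and E2F genes 11 fell, E2F1 with a log2 difference of -2.50 ± 0.09 (adjusted p = 8.8e-19). All 23 S phase genes and all 24 G2 and mitosis genes tested fell with FT671, with medians of -1.74 and -2.02. With USP7 loss 20 of 23 S phase genes fell in neural and 22 in undifferentiated cells. Of the 24 G2 and mitosis genes 22 fell with USP7 loss in neural cells (median -0.60), while in undifferentiated cells 8 rose and 5 fell (median 0.09). With BCOR loss all 23 S phase and all 24 mitosis genes fell in undifferentiated cells (mitosis median -0.90, S phase median -1.65). RRM2, which makes deoxynucleotides, had -2.43 ± 0.06 there. In neural cells 6 of the 23 S phase genes rose, 0 fell and 17 were not called (median 0.13). CCND1, the cyclin D whose kinases the INK4 proteins bind, fell in neural cells with BCOR loss (-1.89 ± 0.06) and USP7 loss (-1.80 ± 0.06), and in undifferentiated cells with BCOR loss (-1.71 ± 0.06) and USP7 loss (-0.90 ± 0.06). Of the 11 G1 cyclin and kinase genes, 6 rose and 2 fell with BCOR loss in neural cells (median 0.17). With USP7 loss in neural cells 0 rose and 5 fell (median -0.18). In undifferentiated cells 2 rose and 8 fell with BCOR loss (median -0.79), and 2 rose and 6 fell with USP7 loss (median -0.45). In neural p53_BCOR_DKO cells, where CDKN2A and CDKN2B were highest, CCNA2 rose by 1.29 ± 0.08 (adjusted p = 9.3e-15) and 15 of 24 mitosis genes rose. With differentiation all 23 S phase genes fell in WT, p53-KO and p53_USP7_DKO cells (medians -0.90, -1.31 and -1.28), and 19 rose in p53_BCOR_DKO cells (median 0.35). Medians over all genes lay between -0.01 and 0.02 in these comparisons. Of all genes, 33% were called higher and 32.1% lower with FT671. The shares were 30.7% and 33% with USP7 loss in neural cells, and 28.9% and 28.4% in undifferentiated cells. With BCOR loss they were 29.4% and 32.9% in neural cells, and 35.6% and 33.7% in undifferentiated cells. With differentiation they were 32.4% and 33.4% in WT and 35.6% and 33.5% in p53-KO cells. They were 33.9% and 31.6% in p53_USP7_DKO and 27% and 30.1% in p53_BCOR_DKO cells.

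Of 24 listed genes for factors known to act on CDK inhibitor genes, 6 rose and 12 fell with FT671, against 33% and 32.1% of all genes (list median -0.27 on the log2 scale). In neural cells 8 rose and 11 fell with USP7 loss, against 30.7% and 33% of all genes (median -0.23), and 7 rose and 11 fell with BCOR loss, against 29.4% and 32.9% of all genes (median -0.18). The list as such was not tested. FOXO1, a factor known to act on CDKN1A and CDKN1B, rose by 2.51 ± 0.11 with FT671, by 3.13 ± 0.11 with USP7 loss and by 3.74 ± 0.11 with BCOR loss in neural cells. TBX3, a repressor known to act on CDKN2A, fell with BCOR loss in neural (-1.79 ± 0.09) and undifferentiated cells (-3.13 ± 0.09) and with USP7 loss in undifferentiated cells (-2.29 ± 0.09). With FT671 EZH2, the Polycomb methyltransferase, fell by 1.43 ± 0.05 (adjusted p = 1.6e-19). In undifferentiated cells 7 rose and 11 fell with USP7 loss, against 28.9% and 28.4% of all genes (median -0.11), and 9 rose and 10 fell with BCOR loss, against 35.6% and 33.7% of all genes (median -0.02).

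For each member the 3 genes that followed it most closely over the 10 groups were sought in the 11604 genes whose mean reached 100, by Pearson's r of the log2 group means, as a description over 10 points that share libraries and controls. For CDKN1A they were RASL11A (r = 0.94), FDXR (0.94) and PHLDA3 (0.91), the last 2 of them known p53 targets. For CDKN2C they were E2F8 (0.98), AL365203.2 (0.97) and BRMS1 (0.97), and over the 4 groups of the heterozygote experiment E2F8 and BRMS1 gave 0.98 and 0.97. For CDKN2A they were PTPRK (0.96), GAL (0.95) and TMEM181 (0.94), for CDKN2D AP5M1 (0.93), PKIA (0.92) and STARD4 (0.91), for CDKN1C PPTC7 (0.94), CA5B (0.90) and ZNF16 (0.89), and for CDKN1B ARHGAP42 (0.94), ERCC5 (0.93) and PALMD (0.93). In the heterozygote experiment the 3 genes of CDKN2D gave 0.97 to 0.99, while PALMD, ARHGAP42 and ERCC5 of CDKN1B gave 0.94, -0.0098 and -0.997, and those of CDKN1A, CDKN1C and CDKN2A gave values between -0.45 and 0.62. CDKN2B, at a mean of 53.8, was not searched.

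The heterozygote experiment sets USP7-heterozygous cells against WT cells, with no p53 change in the labels. Of 6 genes 3 were called in neural cells, against 21.3% of all genes (2 higher against 9.56% of all genes and 1 lower against 11.7%). In undifferentiated cells 2 were called, both lower, against 25.4% (11.4% higher and 14.1% lower). CDKN1A changed in opposite directions. Neural heterozygous cells had 694 and 763 normalized counts, against 631 and 547 in neural WT cells, a rise of 0.31 ± 0.08 (adjusted p = 0.0045). Undifferentiated heterozygous cells had 495 and 539, against 639.7 and 612 in undifferentiated WT cells, a log2 difference of -0.28 ± 0.08 (adjusted p = 0.0094). The groups did not overlap in either state, and the effects differed by 0.58 ± 0.11 (adjusted p = 4.6e-04). Summed fibroblast and endothelium markers (6 of 10 listed) ran from 61743 to 62223 normalized counts in neural heterozygous cells, against 38779 to 41271 in neural WT cells, and from 16466 to 17226 in undifferentiated heterozygous cells, against 13404 to 13876 in undifferentiated WT cells. COL1A2 of this list was at 0 in the first neural library of both heterozygous and WT cells. Summed neuronal markers (7 of 8 listed) ran from 26023 to 26649.5 in neural heterozygous cells, against 36697 to 36849 in neural WT cells, and from 15372 to 16188 in undifferentiated heterozygous cells, against 18472 to 18747 in undifferentiated WT cells. Summed glia markers (4 of 6 listed) stood at 134 and 1139.6 in the first and second neural heterozygous libraries, against 183 to 192 in neural WT cells. The part of these marker sets in the result was not tested. Each call was lost when a single library was left out. In neural cells the values were 0.21 and 0.24 without the second library of WT or of heterozygous cells, and in undifferentiated cells -0.24 and -0.22 without the first library of WT or of heterozygous cells.

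CDKN2A was lower in heterozygous cells in both states. Undifferentiated heterozygous cells had 71.8 and 78.3 normalized counts, against 134 and 135 in WT (-0.84 ± 0.15, adjusted p = 1.5e-04). Neural heterozygous cells had 76.8 and 71.6, against 110.1 and 97.8 in WT (-0.48 ± 0.15, adjusted p = 0.021); this call was lost without the first WT library, without either heterozygous library, and with DESeq2 (-0.49, adjusted p = 0.16). CDKN1C had 287 and 243 in neural heterozygous cells, against 159 and 212 in neural WT cells (0.52 ± 0.12, adjusted p = 0.0032), and the difference was 0.31 and 0.40, and not called, without the first WT or the first heterozygous library. Its undifferentiated value was -0.28 ± 0.12 (adjusted p = 0.1), a difference between states of 0.80 ± 0.17 (adjusted p = 0.0025). CDKN1B, CDKN2C and CDKN2D were not called in either state, with log2 differences of -0.11 ± 0.05, 0.13 ± 0.06 and -0.01 ± 0.10 in neural cells and 0.06 ± 0.05, 0.02 ± 0.06 and 0.10 ± 0.10 in undifferentiated cells. The interaction was called for 2 of 6 genes, both higher, against 16.2% of all genes (8.76% higher and 7.44% lower). Of 24 p53 pathway genes 2 rose and 2 fell in neural heterozygous cells, against 9.56% and 11.7% of all genes (list median -0.04). In undifferentiated heterozygous cells 3 rose and 10 fell, against 11.4% and 14.1% of all genes (list median -0.16). The list as such was not tested.

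**Figure D5:**
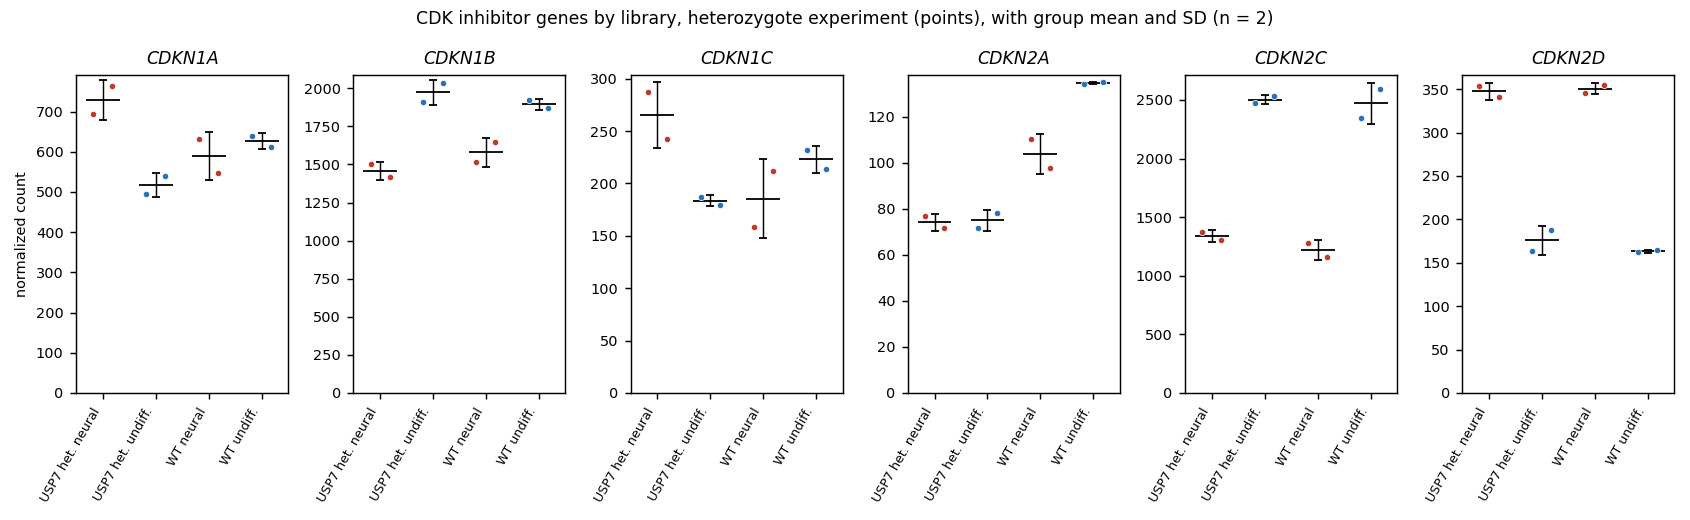
Normalized counts (y, linear from 0) of the 6 CDK inhibitor genes listed in the heterozygote experiment, in neural (red) and undifferentiated libraries (blue) of USP7-heterozygous and WT cells, with group mean and SD (n = 2). CDKN2A lies at 71.6 to 78.3 in heterozygous cells, against 97.8 to 135 in WT cells, and CDKN2C and CDKN2D separate by state.

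Differentiation in that experiment called 5 of 6 genes in heterozygous cells, against 76.4% of all genes (3 higher against 38.2% of all genes and 2 lower against 38.2%), and 5 of 6 in WT cells, against 79.3% (1 higher against 39.7% of all genes and 4 lower against 39.6%). CDKN2D rose and CDKN2C fell as in WT cells of the first experiment. CDKN2D rose by 0.98 ± 0.10 in heterozygous cells (adjusted p = 3.2e-09) and 1.10 ± 0.10 in WT cells (adjusted p = 4.1e-10), and CDKN2C fell in heterozygous cells (-0.90 ± 0.06, adjusted p = 5.2e-13) and in WT cells (-1.02 ± 0.06, adjusted p = 4.9e-14). CDKN1B fell in both, with log2 differences of -0.44 ± 0.05 in heterozygous and -0.26 ± 0.05 in WT cells. CDKN1A rose in heterozygous cells (0.49 ± 0.08, adjusted p = 3.3e-06), and its WT value was -0.09 ± 0.08 (adjusted p = 0.27). CDKN1C rose in heterozygous cells (0.52 ± 0.12, adjusted p = 5.5e-04) and fell in WT cells (-0.28 ± 0.12, adjusted p = 0.044). That fall in WT cells was -0.07 and not called without the first neural library, and it was not called by edgeR or DESeq2 either (adjusted p = 0.06 and 0.14). CDKN2A went against the first experiment: it fell in WT cells, to 110.1 and 97.8 in neural against 134 and 135 in undifferentiated cells (-0.37 ± 0.15, adjusted p = 0.025), where WT cells of the first experiment had 193, 188 and 187 and 126, 104 and 108. That fall was not called by DESeq2 (-0.37, adjusted p = 0.11) or without any of 3 single libraries, and the experiments were normalized apart and not tested against each other. Summed noradrenergic markers (8 of 9 listed) ran from 46523 to 47779 in these neural WT cells, against 88675 to 91542 undifferentiated. In the first experiment (9 of 9 listed) they ran from 70992 to 74946 in neural WT cells, against 60977 to 64166 undifferentiated. The part of these markers in the result was not tested.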

How the data were processed

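RNA-seq of 38 libraries was used, with 16149022 to 17946790 reads in genes per library. Per the submitters' processing notes, reads were handled with STAR, HTSeq and DESeq2 on hg19, with no versions given. The deposited values are a signal per gene, which the values show to be the authors' read count divided by a size factor (0.9217 to 1.0449), plus 1. The 1 was taken off again, and all 579900 values (100.0%) came out as whole reads within 0.01 reads. The design had planned for counts. Since the files hold size-factor values, the main test was limma 3.58.1 (trend, robust) in R 4.3.3 on log2(normalized count + 1), for genes with a mean of at least 5, with all groups of an experiment in 1 model and Benjamini-Hochberg adjustment over all genes tested (called below 0.05).

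The 23 comparisons, 18 in the first experiment and 5 in the second, were also run on recovered reads with edgeR 4.0.16 (quasi-likelihood, TMM) and DESeq2 1.42.0, with TMM rescaling, with 0.5 or 5 added, without a filter, on only the groups compared, with a replicate block and without each library. The steps were tested on simulated data. Members, lists and tests were chosen with earlier results of these data known. All 7 members were described. Other genes were named by rule: the targeted genes, the nearest listed gene on each side of a member, the 3 genes most like each member, and from each list and comparison the called gene with the smallest adjusted p in each direction. Columns of the second experiment carry replicate numbers that differ from those of the sample titles, so columns were tied to groups only and its libraries are named in column order, and 6 columns that match no sample were not used. In the second experiment 918 rows carry no gene symbol. They were kept under their gene identifiers, and all 14820 listed rows were tested. The shares of all genes in that experiment therefore include them. In the first experiment 20 symbols are in a date-like form and were left as deposited. Lengths per gene are union exon lengths of GENCODE and approximate. Promoter sequences are RefSeq on GRCh38.p14, used for their letters and set beside no coordinate of the study. Same-numbered libraries deviated together with r above 0.1 in every pair only for USP7 loss on p53-KO in undifferentiated cells (r 0.15, 0.11 and 0.23). No label says that a number marks a shared culture. The level of 1 targeted gene is not reported here. The effect of the alternatives is given in the closing section.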

Additional observations from a re-analysis of the deposited data

Results flagged for a closer look

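For 13 gene and comparison pairs of the knockout experiment and 2 of the heterozygote experiment, the effect of gene loss differed between neural and undifferentiated cells by the interaction term of the limma fit. The values are the neural effect minus the undifferentiated effect on the log2 scale. With USP7 loss on p53-KO the interaction was -2.22 ± 0.16 for CDKN2D, -1.61 ± 0.13 for CDKN1A, -1.02 ± 0.23 for CDKN1C, 0.96 ± 0.18 for CDKN2A and 0.23 ± 0.08 for CDKN1B. The CDKN1B value was not called on only the groups compared or without the first p53-KO undifferentiated library (0.19, adjusted p = 0.055). CDKN2A and CDKN2D were called in opposite directions in the 2 states, as they were with BCOR loss.

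With BCOR loss on p53-KO the interaction was 2.42 ± 0.18 for CDKN2A, 1.91 ± 0.47 for CDKN2B, 1.14 ± 0.08 for CDKN2C, -1.63 ± 0.23 for CDKN1C, -1.46 ± 0.13 for CDKN1A and -0.73 ± 0.16 for CDKN2D. With p53 loss it was -0.45 ± 0.08 for CDKN2C, which was called in opposite directions in the 2 states, and -0.37 ± 0.13 for CDKN1A, the value that lost its call without any of 7 single libraries. In the heterozygote experiment it was 0.80 ± 0.17 for CDKN1C and 0.58 ± 0.11 for CDKN1A, over 2 libraries a group. Interactions with USP7 loss, BCOR loss and p53 loss share the p53-KO libraries.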

How the results depend on the processing

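Of 1218 values under other settings than a left-out library, 1193 kept their direction and side of the threshold, 16 lost a call, 5 gained one and 4 changed sign. Of 1131 values with libraries left out, 1050 kept both, 43 lost a call, 13 gained one and 25 changed sign. Values that changed sign were uncalled in each case, and the cause was not tested. With TMM rescaling and with edgeR, CDKN1B between the neural double knockouts was -0.0103 and -0.0102, and CDKN2A with FT671 was -0.0282 and -0.0303. Leaving out each library in turn gave -0.11 to 0.076 for CDKN1C with BCOR loss in undifferentiated cells, -0.29 to 0.21 and -0.011 to 0.12 for CDKN1C and CDKN2A with FT671, and -0.0044 to 0.070 for CDKN2D with DMSO. Between the undifferentiated double knockouts it gave -0.093 to 0.19 for CDKN2A and -0.089 to 0.49 for CDKN2B, and -0.043 to 0.052 for the USP7 interaction of CDKN2C. In the heterozygote experiment it gave -0.19 to 0.012 for CDKN1A in WT differentiation, -0.077 to 0.046 for CDKN2A in heterozygous differentiation, -0.050 to 0.092 for CDKN2C in undifferentiated cells and -0.041 to 0.015 for CDKN2D in neural cells.

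Members called with USP7 loss in undifferentiated cells were 3 on only the groups compared, against 6. With DMSO 1 was called on only the groups compared, and 1 to 2 with libraries left out, against 2. For the p53 loss interaction 1 to 2 were called with libraries left out, against 2. DESeq2 called 3 in SHY WT differentiation (3 to 5 with libraries left out, against 5) and 1 with heterozygosity in undifferentiated cells (1 to 2 with libraries left out, against 2), and 1 to 3 were called in neural heterozygous cells with libraries left out, against 3. Leaving out together the 2 libraries that stand apart was chosen after seeing the data: it called 4 in the p53 loss interaction and gave -0.093 for CDKN2A between the undifferentiated double knockouts.

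Over all genes, on only the groups compared, 4831 were called with USP7 loss in undifferentiated cells (against 8798), 6519 between the undifferentiated double knockouts (against 10009) and 3696 with DMSO (against 1336), where 834 and 802 were called without the first untreated and the third DMSO library. DESeq2 called 2029 with heterozygosity in neural cells (against 3151), 2172 in undifferentiated cells (against 3768) and 1202 for their interaction (against 2400). Without the first undifferentiated SHY WT library 2449 were called in undifferentiated cells, and without the first neural heterozygous library 1947 in neural cells and 1538 for the interaction. With a replicate block in the first experiment no member's call changed, and USP7 loss in undifferentiated cells called 8811 of all genes. No paired analysis was possible because, in the heterozygote experiment, column replicate numbers differ from those of the titles, and the genotypes compared share 1 number. Depth limits CDKN2B, at 7 reads in undifferentiated WT cells and 22 in undifferentiated p53-KO cells.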

Other observations

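The genes listed nearest to CDKN1A, CDKN1B, CDKN2C, CDKN2D and CDKN1C were read in 1 comparison for each member. With FT671, where CDKN1A rose by 4.26 on the log2 scale, its neighbour SRSF3, a splicing factor, had 4208, 3973 and 4104 normalized counts with FT671, against 6506, 6953 and 6834 with DMSO (log2 difference -0.72 ± 0.19, adjusted p = 0.0017). CPNE5 on the other side had 82.6, 86.6 and 87.8 with FT671, against 13.6, 23.5 and 17.3 with DMSO (2.21 ± 0.40, adjusted p = 2.0e-05). With FT671, where CDKN1B had a log2 difference of -0.62, its neighbours GPR19 and APOLD1 had -1.71 ± 0.19 (adjusted p = 1.1e-08) and -0.51 ± 0.10 (adjusted p = 5.0e-05). With BCOR loss in undifferentiated cells, where CDKN2C had a log2 difference of -1.81, its neighbours FAF1 and RNF11 had -0.20 ± 0.06 (adjusted p = 0.0021) and 0.46 ± 0.06 (adjusted p = 3.5e-07). With USP7 loss in neural cells, where CDKN2D had -1.43, KRI1 and SLC44A2 had 0.35 ± 0.10 (adjusted p = 0.0037) and 0.27 ± 0.07 (adjusted p = 0.0028). With BCOR loss in neural cells, where CDKN1C had -1.64, KCNQ1OT1, the long noncoding RNA of the same imprinted domain, had 0.24 ± 0.27 (adjusted p = 0.44) and SLC22A18 had 0.02 ± 0.12 (adjusted p = 0.91).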
